A study of Homo sapiens with 6 samples.

Results

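Matrix metalloproteases are zinc enzymes that cut collagens and other proteins outside the cell, and tissue inhibitors of metalloproteases (TIMPs) block them. The 10 genes described here were chosen by symbol: MMP1, MMP3, MMP10, MMP13, MMP7, MMP14, MMP2, MMP9, TIMP2 and TIMP3, out of 62703 genes counted. All 10 were found by their Ensembl identifiers, and 5 of them (MMP1, MMP3, MMP7, MMP10 and MMP13) lie in 1 cluster on chromosome 11q22. Bulk RNA was sequenced from MDA-MB-231, an established human line of triple-negative breast cancer. Its cells carried either a control hairpin (shControl, 3 libraries) or one against RNF20 (shRNF20, 3 libraries). The labels give neither the number of RNF20 hairpins nor whether each line was a pool or a clone. RNF20 is an E3 ligase that ubiquitinates histone H2B in transcribed genes, and the comparison asked how its loss altered gene expression.

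Metalloproteases are made as inactive proenzymes, in which a cysteine of the propeptide holds the catalytic zinc until it is displaced. Other proteases, plasmin and activated metalloproteases among them, remove the propeptide. In tumours these enzymes are known for opening collagen and basement membrane to invading cells, and many genes of the 11q22 cluster are induced by growth factors and interleukin 1 through AP-1, a dimer of FOS and JUN family proteins.

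Promoter windows from RefSeq (GRCh38.p14, 250 bases before to 50 after each gene's start) were at hand for 4 of the 10 genes, MMP7, MMP10, MMP14 and TIMP3. The 120 bases before the start are shown for these 4, because the 2 on 11q22 and the 2 elsewhere differ in the letters they hold there. Capitals mark TGANTCA, the letters of an AP-1 site with any base in the middle (both strands searched), and TATAAA (sense strand only), and all runs read 5′ to 3′ on the gene's own strand.
MMP10, chr11:102780629-102780748, minus strand: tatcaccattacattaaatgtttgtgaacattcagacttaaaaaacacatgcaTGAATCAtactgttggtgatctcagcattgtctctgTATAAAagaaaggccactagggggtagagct
MMP7, chr11:102530748-102530867, minus strand: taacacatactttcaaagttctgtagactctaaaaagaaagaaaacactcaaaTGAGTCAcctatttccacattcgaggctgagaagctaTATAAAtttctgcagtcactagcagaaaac
MMP14, chr14:22836465-22836584, plus strand: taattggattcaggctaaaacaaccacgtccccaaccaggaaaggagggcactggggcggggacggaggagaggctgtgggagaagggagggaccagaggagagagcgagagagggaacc
TIMP3, chr22:32801585-32801704, plus strand: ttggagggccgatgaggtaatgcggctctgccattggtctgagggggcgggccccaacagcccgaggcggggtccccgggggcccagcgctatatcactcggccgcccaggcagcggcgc

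In MMP10 and MMP7 the AP-1 letters began at the same distance, at position -67 from the start, and TATAAA began at -31 and -30. MMP14 and TIMP3 held neither in the whole window. Of 35116 RefSeq promoter windows of this length, 7.71% held TGANTCA, 7.33% held TATAAA and 0.834% held both. The window of MMP7 also held AGGAAG, the letters bound by PEA3-type ETS factors, at -169 and -145 on the opposite strand, as did 33.6% of all windows. GC content was 36.3% in MMP10 and 35.7% in MMP7, 55% in MMP14 and 72.7% in TIMP3, against a median of 58.7%. The base pair CG occurred 2 and 4 times in the first pair, 10 times in MMP14 and 31 times in TIMP3. Over the whole cluster, 5 of 9 metalloproteases had a window: GC content was 33.3% to 44.3%, 3 held TGANTCA and 4 held TATAAA. MMP20 held TGANTCA farther from the start, at -112, MMP8 held only TATAAA, and MMP27 held neither. Outside the cluster 7 of 14 metalloproteases had a window, with GC content of 39% to 80%; none of the 7 held TGANTCA, and MMP26 and MMP21 held TATAAA. A match of letters describes the sequence and is not evidence of binding.

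Counts assigned to genes totalled 21988826 to 29685306 per library. RNF20 mRNA stood at 57.8 to 58.5 CPM (counts per 1e6 counts, with TMM-scaled library sizes) in shControl and at 11.1 to 14.1 CPM in shRNF20. The cells carried VIM (637 CPM), KRT8 (613 CPM) and EGFR (432 CPM) and almost no ESR1 (0.10 CPM) in the shControl mean, as is known for this line. Of the 12 epithelial and line markers checked, 10 were tested, 5 fell and 3 rose: among them KRT19 fell (437 to 141 CPM), CD24 fell (74.1 to 24.9 CPM), EPCAM rose (13.5 to 21.1 CPM) and ESR1 rose to 1.44 CPM. ESR1 reached the level for testing only in shRNF20, so it could enter only as a rise. Over all genes tested, 29.8% passed as lower and 28.7% as higher, the shares to set beside each marker list. Mitochondrially encoded RNA made up 0.934% to 1.38% of gene counts in shControl and 4.91% to 6.22% in shRNF20. Of all reads, with those assigned to no gene included, reads outside annotated exons made up 2.39% to 2.58% in shControl and 5.05% to 5.49% in shRNF20. Of 12 fibroblast and endothelial markers, 7 were tested, 4 rose and 1 fell. Their summed level was 30.1 to 41.0 CPM in shControl and 65.3 to 69.1 CPM in shRNF20. The rises were the collagen genes COL1A1 (13.2 to 30.2 CPM) and COL3A1 (0.128 to 1.2 CPM), PDGFRB (5.03 to 19.9 CPM) and LUM (0.865 to 6.67 CPM), and the fall was PECAM1 (5.12 to 0.659 CPM). COL3A1, like ESR1, reached the level for testing only in shRNF20 and could enter only as a rise. DCN, PDGFRA, FAP, VWF and CDH5 were too low to test. Of 12 leukocyte markers, 3 were at 0 in all libraries and 3 were tested. CD14 rose (1.41 to 3.08 CPM), CSF1R fell (2.34 to 1.36 CPM) and PTPRC did not pass. The summed level of the 12 was 4.0 to 5.53 CPM in shControl and 4.71 to 6.31 CPM in shRNF20. With the mitochondrially encoded genes left out of the counts, all 7 tested members kept their calls and directions (MMP1 -3.27, MMP14 -0.74, TIMP3 -1.57 and TIMP2 0.18 as log2 fold changes). The part of the other shifts in the results that follow was not tested. The shRNF20 libraries were much closer to each other than the shControl libraries were: the chi-square over genes per degree of freedom was 2.05 to 6.95 between pairs of the former and 32.5 to 53.3 between pairs of the latter.

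MMP1 encodes the interstitial collagenase, which makes the first cut in fibrillar collagen, and per exon length it had the highest mean of the metalloprotease mRNAs in shControl. The gene lies on chromosome 11, 102789920 to 102798160 (ENSG00000196611.6, minus strand, 10 exons in its main transcript). Its level was 496, 529 and 821 CPM in replicates 1, 2 and 3 of shControl, against 58.2, 58.6 and 76.3 CPM in those of shRNF20. The groups did not overlap, replicate 3 was the highest library of each group, and the lowest control was far above every shRNF20 library. MMP1 fell 9.56-fold (log2 fold change -3.26 ± 0.21 SE, adjusted p by edgeR = 1.33e-05). In bulk RNA, fewer cells of a type and less RNA per cell cannot be told apart. Of 15797 genes tested, 29.8% passed as lower at an adjusted p under 0.05, 2.89% passed at 4-fold lower or more, and 32.8% had groups that did not overlap with shRNF20 lower.

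The counts without strand leave out reads over exons that MMP1 shares with another gene. WTAPP1, a transcribed pseudogene on the opposite strand (102746968 to 102836766), runs across MMP10, MMP1 and the end of MMP3, and reads over exons of more than 1 gene were set aside as ambiguous. The sum of the strand columns credits a read over genes on opposite strands to each of them. It gave MMP1 22315, 20870 and 29935 reads in shControl and 2370, 1938 and 3403 in shRNF20. The reads that the counts without strand had left out, 7671, 7464 and 10652 in shControl and 858, 648 and 1233 in shRNF20, made up 33.4% to 36.2% of this sum. WTAPP1 itself had 0 or 1 read in each library without strand, and by strand it received 7671, 7465, 10656, 859, 649 and 1234 reads. These are the same reads as those added to MMP1, 4 added to MMP3 in shControl replicate 3, and the 0 or 1 reads of its own. The first strand column held 50.1% to 50.2% of gene reads in each library, so the reads do not tell the strand, and transcription of WTAPP1 cannot be told apart from that of MMP1 where they overlap. Summing both strands counts every shared read for MMP1. Its mean was then 951 ± 282 CPM in the controls against 99.6 ± 17.4 CPM after knockdown (SD, n = 3). Its log2 fold change was -3.23.

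**Figure D1:**
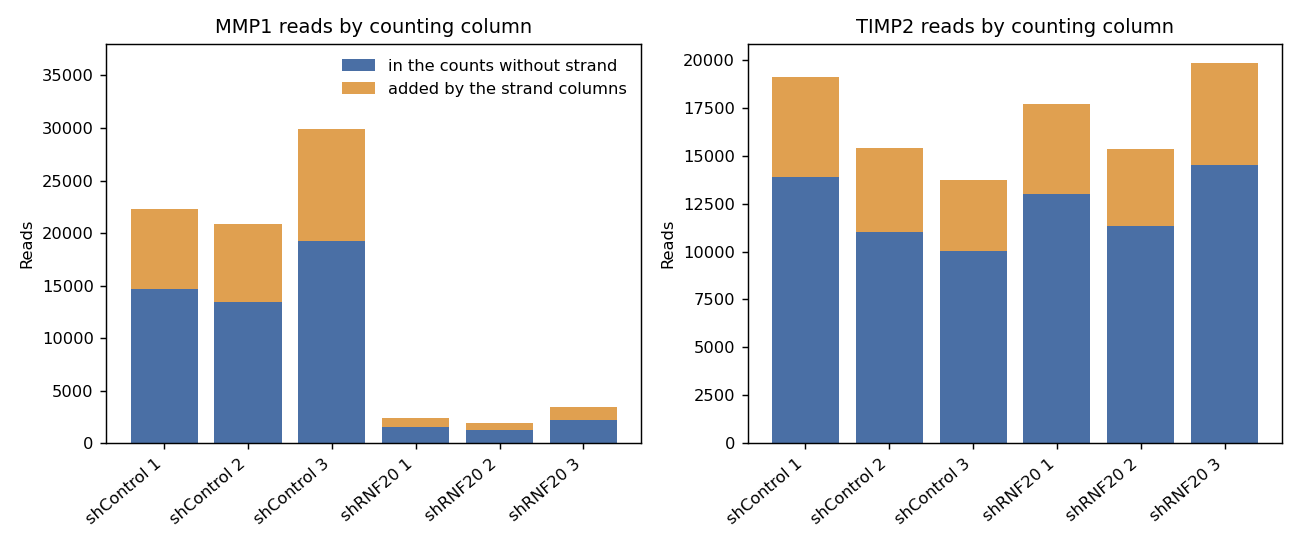
Reads of MMP1 (left) and TIMP2 (right) in each library, as bars split into reads in the counts without strand (blue) and reads added when the strand columns are summed (orange). The added share was 33.4% to 36.2% for MMP1 and 26.0% to 28.3% for TIMP2 in all 6 libraries.

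MMP3 and MMP10 encode stromelysins, which cut proteoglycans, laminin and fibronectin and can activate procollagenases. MMP3 (ENSG00000149968.12, chromosome 11, 102835801 to 102843803) was far less abundant than MMP1, with 137, 89 and 335 reads in shControl and 22, 34 and 37 in shRNF20. That is 4.64, 3.51 and 14.3 CPM against 0.846, 1.54 and 1.30 CPM. The groups did not overlap, and shControl replicate 3 was well above the other controls. MMP3 fell 6.06-fold (log2 fold change -2.60 ± 0.55 SE, adjusted p by edgeR = 0.00355). Without shControl replicate 3 the log2 fold change was -1.74 and still passed.

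MMP10 (ENSG00000166670.10, chromosome 11, 102770503 to 102780628) had 26, 61 and 17 reads in shControl and 2, 0 and 2 in shRNF20. In CPM it stood at 0.880, 2.41 and 0.724 against 0.0770, 0 and 0.0703. Here replicate 2, not replicate 3, was the highest control, and no shRNF20 library rose above the level of 3 reads, which is 0.105 to 0.136 CPM in that group. MMP10 fell with a log2 fold change of -4.56 (SE 0.78, edgeR adjusted p = 0.00126), a size that rests on 4 reads in the shRNF20 group. The ratio of the summed reads, 104 against 4, was 25.4 with an exact 95% interval of 9.62 to 94.9, which covers counting error only. Without shControl replicate 2 the log2 fold change was -3.85.

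MMP13 encodes collagenase 3, which prefers the collagen of cartilage and is induced through RUNX2 and AP-1 (ENSG00000137745.13, chromosome 11, 102942995 to 102955734). It had 21, 22 and 31 reads in shControl and 4, 7 and 8 in shRNF20, or 0.711, 0.868 and 1.32 CPM against 0.154, 0.318 and 0.281 CPM. The groups did not overlap. MMP13 fell 3.80-fold (log2 fold change -1.92 ± 0.42 SE, adjusted p by edgeR = 0.00436). MMP10 and MMP13 reached the minimum level for testing only in the shControl libraries, so a gene of their kind could enter the test only by being lower in shRNF20.

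MMP7 encodes matrilysin, a small metalloprotease that lacks the hemopexin domain (ENSG00000137673.9, chromosome 11, 102520508 to 102530753, 6 exons). Its 3, 9 and 7 reads in shControl and 3, 2 and 3 in shRNF20 were too few for the test. The groups overlapped in CPM, and the ratio of the summed reads, 19 against 8, was 2.32 with a 95% interval of 0.969 to 6.12. Of the 5 members on 11q22, MMP1 and MMP3 were thus high enough for the test in either group and fell, MMP10 and MMP13 entered through shControl alone, and MMP7 was not tested. The median log2 fold change over all genes tested was -0.01. With the counts of the 3 shRNF20 libraries added up as 1 sample, MMP3 and MMP13 no longer passed (edgeR adjusted p = 0.0887 and 0.0926), while MMP1 and MMP10 did (adjusted p = 0.00517 and 0.0282).

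**Figure D2:**
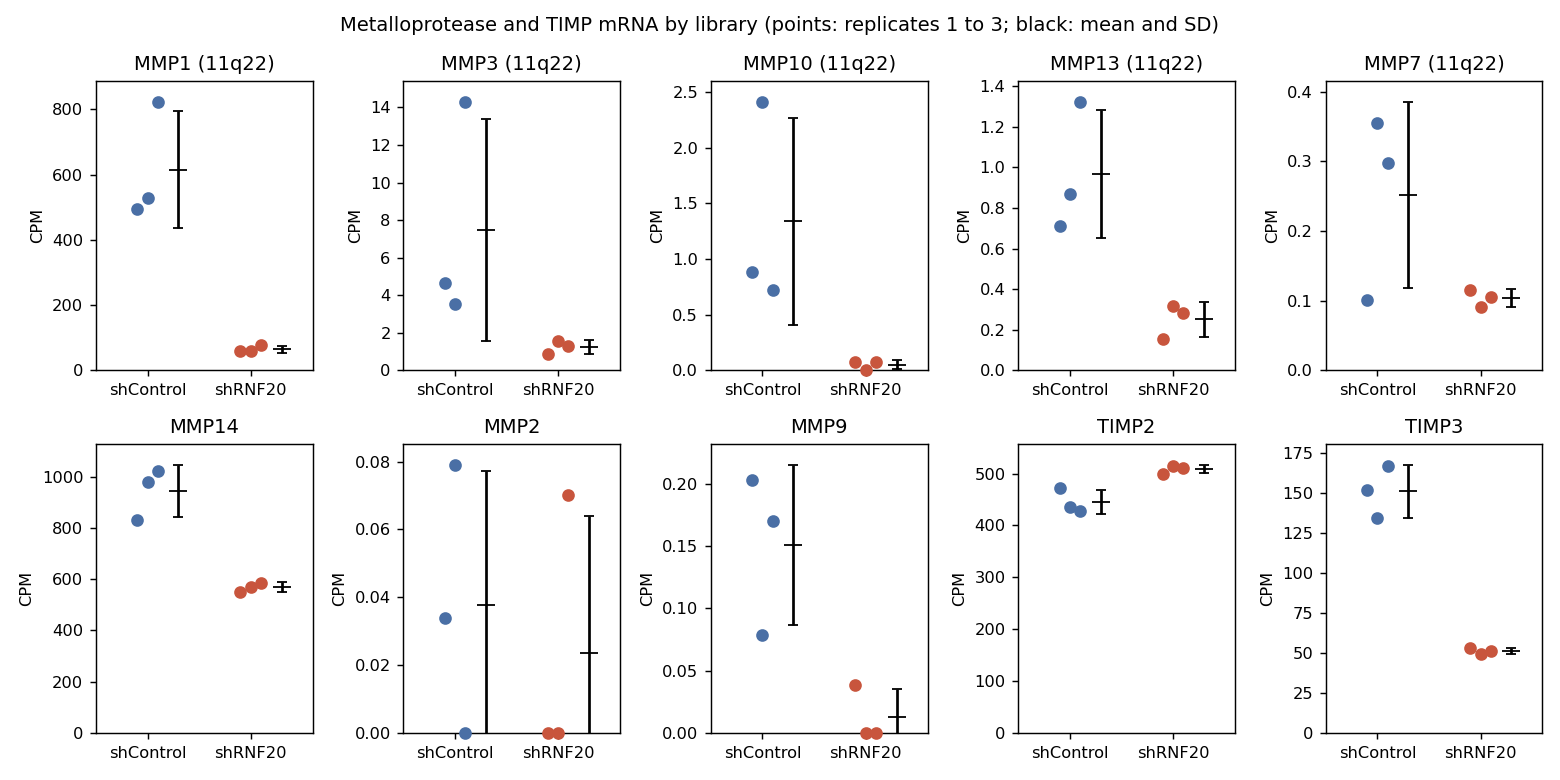
CPM of each of the 10 genes, 1 panel per gene with its own linear axis from 0; points are replicates 1 to 3 of shControl (blue) and shRNF20 (red), and the black bar is the mean with SD, cut off at 0 for MMP2 and MMP9. The shRNF20 libraries of MMP1 sit between 58.2 and 76.3 CPM, below all controls, while those of TIMP2 sit between 500.1 and 515 CPM, above all controls.

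Outside the cluster, MMP14 encodes the membrane-anchored collagenase MT1-MMP, which cuts fibrillar collagen at the cell surface and activates the MMP2 proenzyme (ENSG00000157227.14, chromosome 14, 22836557 to 22849027, 10 exons). The controls had 832, 979 and 1024 CPM, and the shRNF20 libraries 549, 571 and 587 CPM. The groups did not overlap and the gap between them was wider than the spread within either. MMP14 fell 1.66-fold (log2 fold change -0.73 ± 0.09 SE, adjusted p by edgeR = 2.06e-04), so it stayed abundant in the knockdown cells.

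MMP2 and MMP9 encode the gelatinases, which cut denatured collagen and the collagen of basement membranes. MMP2 (chromosome 16, 55389700 to 55506691) had 1, 2 and 0 reads in shControl and 0, 0 and 2 in shRNF20, so it was not detectable above 3 reads in any library. MMP9 (chromosome 20, 46008908 to 46016561) had 6, 2 and 4 reads in shControl and 1, 0 and 0 in shRNF20. Neither gene reached the level for testing. Every shRNF20 library of MMP9 was below every control, but the ratio of 12 to 1 summed reads, 11.7, has a 95% interval of 1.73 to 501. The summed strand columns, which also count reads shared with an overlapping gene, gave MMP9 8, 6 and 8 reads against 3, 1 and 1. With no filter on low counts, the edgeR adjusted p was 0.0694 for MMP9, 0.276 for MMP7 and 0.827 for MMP2.

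TIMP2 encodes a secreted inhibitor that also bridges MMP14 and the MMP2 proenzyme at the cell surface (ENSG00000035862.13, chromosome 17, 78852977 to 78925387, 5 exons). Its level in the controls was 471, 436 and 428 CPM, against 500.1, 515 and 509.9 CPM with the RNF20 hairpin. The groups did not overlap, but they came close. TIMP2 rose 1.14-fold (log2 fold change 0.19 ± 0.07 SE, adjusted p by edgeR = 0.0351). Of all genes tested, 28.7% passed as higher, and 33.5% had groups that did not overlap with shRNF20 higher. This call was lost in 9 of 17 other analyses, among them those without shControl replicate 2 or 3 or any 1 shRNF20 library (log2 fold changes 0.15 to 0.19, adjusted p = 0.0566 to 0.155). Of the reads that the summed strand columns gave TIMP2, 26.0% to 28.3% were shared with overlapping genes and absent from the counts without strand. These cannot be assigned to TIMP2 or to those genes, and the log2 fold change with them was 0.20.

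TIMP3 encodes an inhibitor that binds to the matrix and also blocks ADAM proteases (ENSG00000100234.12, chromosome 22, 32801701 to 32863043, 5 exons). The controls held 152, 134 and 167 CPM and the knockdown libraries 52.9, 49.1 and 51.1 CPM, with no overlap. TIMP3 fell 2.95-fold (log2 fold change -1.56 ± 0.09 SE, adjusted p by edgeR = 9.67e-06). Among the 5 members outside the cluster, 3 were tested, 2 fell and 1 rose, with a median of -0.73. In all, 7 of the 10 genes were tested and 7 passed, where 58.4% of all genes tested passed in either direction; for MMP10 and MMP13 the filter on low counts had fixed the direction.

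Placed among all genes tested by log2 fold change, MMP10 was at percentile 0.10, MMP1 at 0.58, MMP3 at 1.29 and MMP13 at 3.2. TIMP3 was at percentile 5.18, MMP14 at 18.6 and TIMP2 at 61.3. The ranks of MMP10 and MMP13 describe genes that the filter let in only as lower, and that of MMP10 rests on 4 reads in shRNF20. Whether members on 11q22 differed from those elsewhere was not tested, since members are not replicates. The log2 fold changes of MMP11, outside the cluster (-2.09, SE 0.45), and of MMP13 (-1.92, SE 0.42) lay within their errors.

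**Figure D3:**
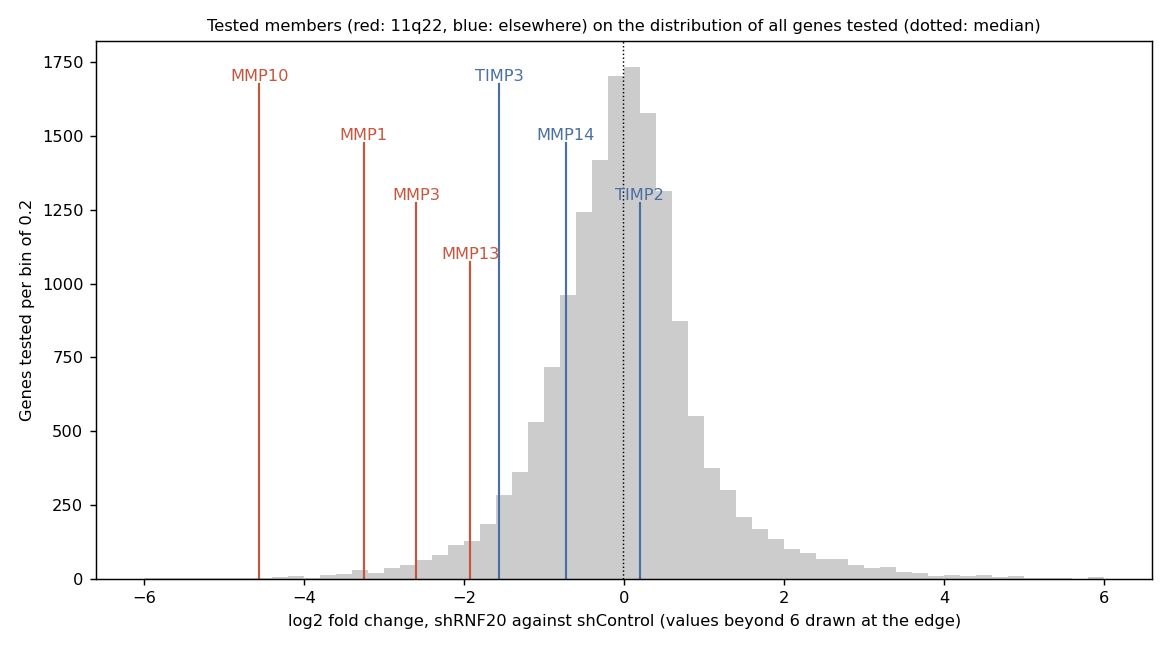
Histogram of the log2 fold change (shRNF20 against shControl) of all 15797 genes tested, in bins of 0.2, with lines at the 7 tested members (red on 11q22, blue elsewhere) and a dotted line at the median of -0.01. MMP10, MMP1, MMP3 and MMP13 lie in the lower tail, from -4.56 to -1.92, and TIMP2 lies at 0.19 near the centre.

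Levels of different genes were compared per exon length, as RPKM. In shControl the order was MMP1 (312 ± 90.8 RPKM), MMP14 (212 ± 22.5), TIMP2 (79.0 ± 4.09), TIMP3 (32.8 ± 3.55), MMP3 (3.65 ± 2.89), MMP10 (0.761 ± 0.529) and MMP13 (0.341 ± 0.112), with MMP7 at 0.108, MMP9 at 0.0646 and MMP2 at 0.00762 RPKM (± is SD, n = 3). MMP10 and MMP13 did not differ beyond their spread, and the lowest MMP1 library (252 RPKM) lay just above the highest MMP14 library (229 RPKM). In shRNF20 the order was MMP14 (127 ± 4.29 RPKM), TIMP2 (90.3 ± 1.37), MMP1 (32.7 ± 5.24), TIMP3 (11.1 ± 0.416), MMP3 (0.601 ± 0.173), MMP13 (0.0885 ± 0.0303) and MMP10 (0.0279 ± 0.0243). MMP1 thus moved from the first place to the third. With the strand columns summed, MMP1 was at 483 ± 143 RPKM and TIMP2 at 109 ± 5.60 RPKM in shControl, and at 50.6 ± 8.83 and 123 ± 1.70 RPKM in shRNF20. These sums include reads shared with overlapping genes, which cannot be assigned to either gene of a pair.

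MMP1 and MMP14 together made up most of the metalloprotease mRNA, and their order differed between the groups. Of the RPKM summed over the 23 metalloproteases, MMP1 held 54.9%, 51.9% and 62.1% in shControl and 16.9%, 16.4% and 20.1% in shRNF20. MMP14 held 34.2% to 42.4% and 68.1% to 70.6%. The sum itself was 458 to 671 RPKM in shControl and 175 to 193 RPKM in shRNF20. The ratio of MMP1 to MMP14 per length was 1.35, 1.22 and 1.82 in shControl and 0.240, 0.233 and 0.294 in shRNF20. These shares and ratios use the counts without strand, which leave out the reads that MMP1 shares with WTAPP1. Summing the strand columns counts all such shared reads for each metalloprotease. With the strand columns summed the ratio was 2.06, 1.91 and 2.82 in shControl and 0.377, 0.349 and 0.462 in shRNF20, over 1.5 times higher in each library, and MMP1 held 61.3% to 70.8% and 21.8% to 27.1% of the metalloprotease RPKM.

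Among inhibitors, the ratio of TIMP3 to TIMP2 was 0.394, 0.376 and 0.477 in shControl and 0.129, 0.117 and 0.123 in shRNF20. That of MMP14 to its partner TIMP2 was 2.23, 2.84 and 3.02 against 1.38, 1.40 and 1.45. Summing the strand columns adds the reads that TIMP2 shares with overlapping genes. These ratios were then 0.270 to 0.349 against 0.0863 to 0.0952, and 1.62 to 2.21 against 1.02 to 1.06. All 3 ratios were lower in every shRNF20 library than in every shControl library, by 2.50, 1.75 and 0.92 on the log2 scale as differences of group means. Each gave an exact two-sided permutation p of 0.1 (0.1 after adjustment over the 3), the smallest that 3 libraries against 3 allow.

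**Figure D4:**
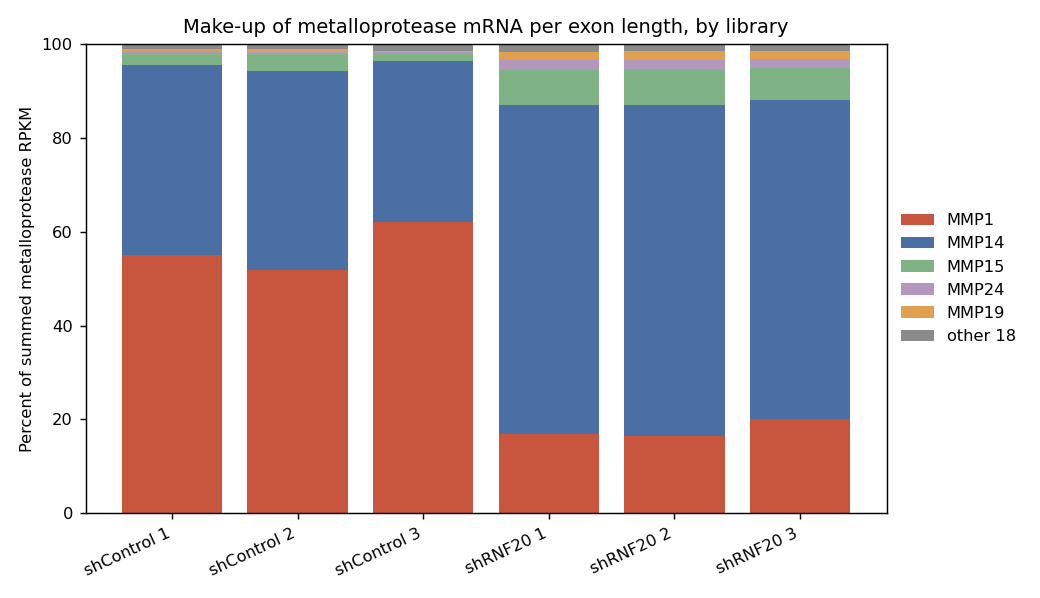
Share of each metalloprotease in the RPKM summed over 23 metalloprotease genes, as stacked bars for the 6 libraries. MMP1 (red) covers 51.9% to 62.1% of the bar in shControl and 16.4% to 20.1% in shRNF20, where MMP14 (blue) covers 68.1% to 70.6%.

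The rest of the 11q22 cluster was close to silent. MMP27 had 0 reads in every library, MMP20 and MMP12 had at most 5 and 4, and MMP8 had 8 reads in shControl replicate 1 and at most 2 elsewhere. Of the 9 metalloproteases of the cluster only MMP1, MMP3, MMP10 and MMP13 were tested. The 11 other protein-coding genes within 1 Mb of the cluster went both ways: of 10 tested, 5 fell and 1 rose, with a median of -0.35. These 6 of 10 are near the 58.4% of all genes that passed. The ciliary gene CEP126 fell (-1.81, SE 0.16, edgeR adjusted p = 4.50e-05), as did the membrane protein gene TMEM123 (-1.09), the growth coactivator YAP1 (-1.01), CFAP300 (-0.87) and the ciliary motor DYNC2H1 (-0.55). The apoptosis inhibitor BIRC2 rose (0.63, SE 0.12, edgeR adjusted p = 0.00202). BIRC3 (0.14), DCUN1D5 (0.06), PDGFD (-0.16) and TRPC6 (0.24) did not pass, and ANGPTL5 was not tested. The log2 fold changes of MMP13 (-1.92, SE 0.42) and CEP126 lay within their errors, and without shControl replicate 3 those of MMP13 and MMP3 were -1.65 and -1.74 against -1.80 for CEP126.

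**Figure D5:**
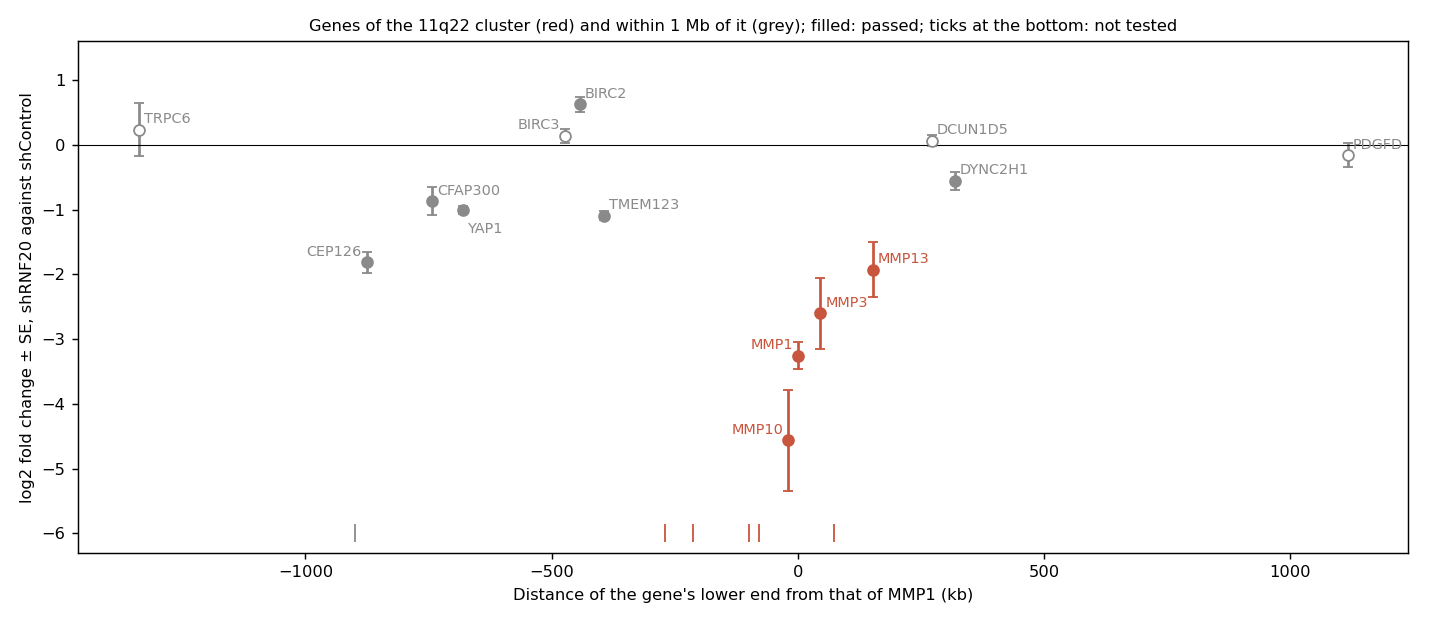
Log2 fold change with SE of genes of the 11q22 cluster (red) and protein-coding genes within 1 Mb of it (grey), against the distance in kb of each gene's lower end from that of MMP1; filled points passed the test and ticks at the bottom are genes not tested. The 4 tested metalloproteases lie between -4.56 and -1.92, and the neighbours between -1.81 and 0.63.

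Of the 14 metalloproteases outside the cluster, 9 were tested, 3 fell and 4 rose, with a median of -0.02, where 58.4% of all genes passed. Beside MMP14, the falls were MMP11, which encodes stromelysin 3 (2.37 ± 1.33 to 0.555 ± 0.12 CPM, log2 fold change -2.09), and the GPI-anchored MMP17 (-0.62, lost in 9 of 17 other analyses). Without shControl replicate 2 the log2 fold change of MMP11 was -1.58. The rises were MMP25, a GPI-anchored enzyme of leukocytes (0.217 ± 0.0543 to 1.17 ± 0.229 CPM, 2.41), MMP21 (2.38), the membrane-anchored MMP24 (1.17) and MMP19 (0.52, lost in 7 of 17 other analyses). MMP25 (6, 7 and 4 reads in shControl, 34, 20 and 37 in shRNF20) and MMP21 (5, 3 and 3 against 25, 15 and 17) reached the level for testing only in shRNF20, so they could enter only as rises. Many reads at these loci are shared with overlapping genes, and the count of 4 rises depends on leaving them out. With the strand columns summed MMP24 passed in the other direction (-0.41, edgeR adjusted p = 0.0178), MMP21 did not pass (0.42, adjusted p = 0.12) and MMP25 still rose (1.68). Those sums may hold the overlapping genes' own transcripts, since the reads do not tell the strand. They therefore do not settle the direction of MMP24 or MMP21. MMP15 (-0.09) and MMP16 (-0.02), both membrane-anchored, did not pass. MMP23B, MMP26 and MMP28 were not tested. Over all 23 metalloproteases 13 were tested, 7 fell and 4 rose.

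Among the other inhibitors, TIMP1 had a mean of 174 ± 32.8 CPM in shControl against 139 ± 4.79 CPM in shRNF20 and did not pass (-0.33, edgeR adjusted p = 0.0553), though it passed as lower in 4 of 17 other analyses. RECK, a membrane-anchored inhibitor, did not pass (-0.20). TIMP4 rose, from a mean of 0.730 ± 0.334 to one of 1.39 ± 0.133 CPM (0.93, adjusted p by edgeR = 0.0494), a call lost in 12 of 17 other analyses.

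Of 11 genes that activate, dock or clear these enzymes, 10 were tested, 7 fell and 1 rose, with a median of -1.90, against shares of 29.8% lower and 28.7% higher over all genes. The urokinase gene PLAU, whose product generates plasmin, had a mean of 212 ± 27.3 CPM in shControl and fell to 33.7 ± 0.991 CPM (log2 fold change -2.65 ± 0.10 SE, adjusted p by edgeR = 3.59e-06). PLAT, the other plasminogen activator, fell (-2.23), and so did CD44, the hyaluronan receptor that docks MMP14 and MMP9 (-1.23). The proprotein convertase FURIN, which activates the MMP14 proenzyme inside the cell, had 55.3 ± 28.9 CPM in shControl and rose to 134 ± 4.74 CPM (1.28 ± 0.30 SE, adjusted p by edgeR = 0.00636). BSG, which encodes the metalloprotease inducer EMMPRIN, and the urokinase receptor PLAUR did not pass (0.13 and 0.07).

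Of 17 AP-1, ETS, RUNX and CEBP factor genes, 8 passed as lower, 2 as higher and 7 in neither direction (median -0.43). These 10 of 17 are near the 58.4% of all genes that passed. The most abundant AP-1 member that fell was FOSL1, from 419 ± 12.1 to 268 ± 7.19 CPM (-0.64, SE 0.06), and JUND fell as well (-1.12). JUN (0.11), FOSL2 (-0.07) and FOS (-0.43) did not pass. The ETS factor ETV4 fell (-1.38), while ELF3 (0.86) and RUNX1 (0.34) rose. RUNX2 fell from 89.5 ± 4.34 to 66.4 ± 1.75 CPM (-0.43, SE 0.07), and the AP-1 member FOSB fell as well (-0.77, SE 0.26). Of 15 ligands and receptors known to induce metalloproteases 13 were tested, 8 fell and 2 rose, with a median of -0.43, where 29.8% of all genes passed as lower and 28.7% as higher. IL1B fell from 198 ± 74.0 to 19.6 ± 1.95 CPM (-3.34, SE 0.28), IL1A from 85.1 ± 26.0 to 10.1 ± 1.29 CPM (-3.08, SE 0.23) and the EGF receptor ligand AREG from 264 ± 51.3 to 93.2 ± 1.59 CPM (-1.50). IL1RAP, the accessory chain of the interleukin 1 receptor (0.55), and TGFBR2 (0.47) rose, and TNF was not tested. The edgeR adjusted p-values of FOSL1, IL1B and IL1A were 7.66e-05, 3.53e-05 and 2.12e-05.

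The genes whose log2-CPM followed MMP1 most closely over the 6 libraries, among 10062 others whose mean log2-CPM reached 3, were NAA38, a subunit of an N-terminal acetyltransferase, the membrane glycoprotein CDCP1, the myosin phosphatase partner MPRIP, the protein kinase A subunit PRKAR1B and the calpain subunit CAPNS1. Their Pearson r with MMP1 was 0.9990 to 0.9998. The 6 points form 2 groups and share libraries, and 1500 of these genes had an r above 0.95. CDCP1 had 828, 827 and 964 CPM in the controls, against 357, 358 and 394 CPM in the shRNF20 libraries, with replicate 3 the highest of each group, as for MMP1.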

How the data were processed

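The authors deposited raw read counts per gene, made with STAR 2.7.11a on hg38 after FastQC 0.12.1, per the submitters' processing notes. The labels do not name the annotation release. The counts without strand were used, with symbols by identifier and positions and union exon lengths from GENCODE 29 on the same assembly. Lines that name no gene (20.9% to 24.1% of reads) were left out.

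Low genes were removed with filterByExpr at a minimum count of 10. TMM scaling and the test used edgeR 4.0.16 in R 4.3.3 (quasi-likelihood F-test, robust, Benjamini-Hochberg over all genes tested, threshold 0.05). SE is the log2 fold change over the root of F, and ± is SD over 3 libraries unless SE is named. Whether replicates were separate cultures is not stated; the p-values therefore reflect spread among these libraries alone, which may be technical. Intervals and the level of 3 reads cover counting error only. The script was tested on simulated counts. Members and lists were chosen with earlier results of these data known. Of each pathway list up to 3 genes with the smallest p in each direction were to be named. BSG, PLAUR, JUN, FOS, FOSL2, FOSB, RUNX2 and TNF were named after their values were seen, as were the marker genes given by name. Likeness used log2-CPM with a prior count of 2 and names 5 genes. Protein sequences were not analysed here. Alternatives used DESeq2 1.42.0, limma-voom (limma 3.58.1), other scalings and filters, the strand columns and libraries left out. The 3 ratios were not among the planned results, and their alternatives were chosen after seeing the data.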

Additional observations from a re-analysis of the deposited data

How the results depend on the processing

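The calls and directions of MMP1, MMP10, MMP14 and TIMP3 held in every one of the 17 alternatives that tested them. MMP1 ranged from -3.41 to -3.00 (adjusted p up to 0.00517), MMP10 from -4.94 to -3.85, MMP14 from -0.84 to -0.68 and TIMP3 from -1.66 to -1.49. MMP3 and MMP13 each lost their call in 1 alternative, and TIMP2 in 9. With the shRNF20 libraries summed to 1 sample, which takes the spread from shControl alone, 3372 genes passed in place of 9232, 4 members in place of 7, 2 of 4 on 11q22, 3 of 10 around the cluster in place of 6 and 16 pathway genes in place of 28. A filter of CPM of at least 1 in 3 libraries left only 2 members on 11q22 to test, MMP1 and MMP3, and 2 passed. With 1 library left out, 7523 to 9777 genes and 6 or 7 members passed. Summing the strand columns, which also counts reads shared with overlapping genes, turned MMP24 to -0.41. The labels do not say whether the replicate numbers pair the samples. Same-numbered libraries had correlations of deviations of -0.02, 0.04 and 0.03, and under the replicate block 8936 genes and 6 members passed. The shRNF20 libraries differed little from each other, so low correlations cannot show that a pairing is absent. The scalings moved the median of all genes by less than 0.1. Depth limits MMP2, MMP7 and MMP9, whose reads were too few for a test.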
